A study of Mus musculus with 2 samples.

Results

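The desmosomal genes described here encode the cadherins Dsg2, Dsg3, Dsc1, Dsc2 and Dsc3, the armadillo proteins Jup, Pkp1 and Pkp3, the plakin Dsp and the tetraspan membrane protein Perp. They were taken by name, and the values are those of every probe set that the platform annotation gives to exactly 1 of these 10 genes. That gave 20 probe sets for 9 genes, out of 34945 probe sets for 18193 genes. No probe set was given to Dsg3 alone, and it was not analysed here. Expression was measured in CD34+ epithelial cells sorted from mouse skin tumours, on Affymetrix Mouse Genome 430 2.0 arrays. Of the 2 arrays, 1 held RNA of the wild-type genotype and 1 RNA of the K14CreER:Rosa-VEGF-164 genotype. In the latter, CreER, a tamoxifen-inducible Cre under the keratin 14 promoter, active in basal epidermal cells, serves to switch on VEGF-164 from the Rosa locus. Both genotypes had been given DMBA, a carcinogen, on postnatal days 23, 25 and 27, then TPA, a tumour-promoting phorbol ester, for several weeks, and DMBA again at 7 weeks of age. The labels do not give the time of Cre induction, the age at collection or how many tumours or mice were pooled. With 1 array per genotype there is no replicate error and no test between genotypes, and every direction below follows the labels. Vegfa, the gained gene, had a lower signal on the array labelled VEGF (397, and 804 on the wild-type one), and whether its probe sets read the transgene is not known here.

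Desmosomes are patches of strong cell-to-cell adhesion that tie the keratin filaments of neighbouring epithelial cells together. Desmogleins and desmocollins cross the membrane and bind the cadherins of the next cell. Inside the cell, plakoglobin (Jup) and the plakophilins (Pkp genes) bind the cadherin tails, and desmoplakin (Dsp) links them to keratin. In epidermis the cadherins are layered, with Dsg2, Dsg3, Dsc2 and Dsc3 found mainly in the lower layers and the desmoglein 1 and desmocollin 1 proteins mainly in the upper ones.

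Signals are MAS5 values, which summarise a probe set on each array separately, and each ratio divides the signal on the array labelled VEGF by the wild-type signal. Background, the 90th percentile over 80 probe sets for odorant and vomeronasal receptors, which skin is not expected to express, was a signal of 19.8 in wild type and 11.3 on the array labelled VEGF. Where 1 array was at or below it, the fold is a bound against that level and is written "at least". The keratinocyte genes Krt5 and Krt14 and the sort genes Itga6, Epcam and Cd34 were above background on both arrays (5 of 5, with summed signals of 23321 and 21523 on the wild-type array and the array labelled VEGF). Krt5 and Krt14 dominate these sums, and the sort genes differed more. Log2 ratios were -0.71 for Itga6 (3952 and 2421), 0.80 for Cd34 (430 and 751) and 0.25 for Epcam, with -1.16 by its other probe set. The only measure of error was the disagreement between probe sets of a gene. The log2 ratio of any given probe set had an SD of 0.50 in the lowest tertile of signal (under 87.0), 0.42 in the middle tertile and 0.32 in the highest (above 213). It leaves out the spread between animals, tumours, sorts and labellings. In sorted cells measured in bulk, fewer expressing cells and less RNA per cell cannot be told apart.

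Most desmosomal genes had similar signals on both arrays, and 2 desmocollin genes did not. Of the 9 genes measured, 2 were at least 2-fold higher on the array labelled VEGF (22.2%, against 3.87% of 12198 genes measured), and 0 were at least 2-fold lower (against 8.53%). The shares over all genes were more even after quantile normalization (4.50% higher, 5.42% lower) and loess normalization (4.65% and 5.13%), with 2 and 0 members each time. The 2 were Dsc2, at 5.29-fold, and Dsc1, at 2.39-fold. The other 7 had log2 ratios between -0.58 and 0.48. The median log2 ratio of the 9 was -0.01, and that of all genes measured was -0.04. Of the 20 probe sets 19 were above background on both arrays, and 3 of them, all for Dsc1 or Dsc2, were at least 2-fold higher (against 3.53% of 21515 probe sets). Of the 19, 0 were at least 2-fold lower (against 10.3%).

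**Figure D1:**
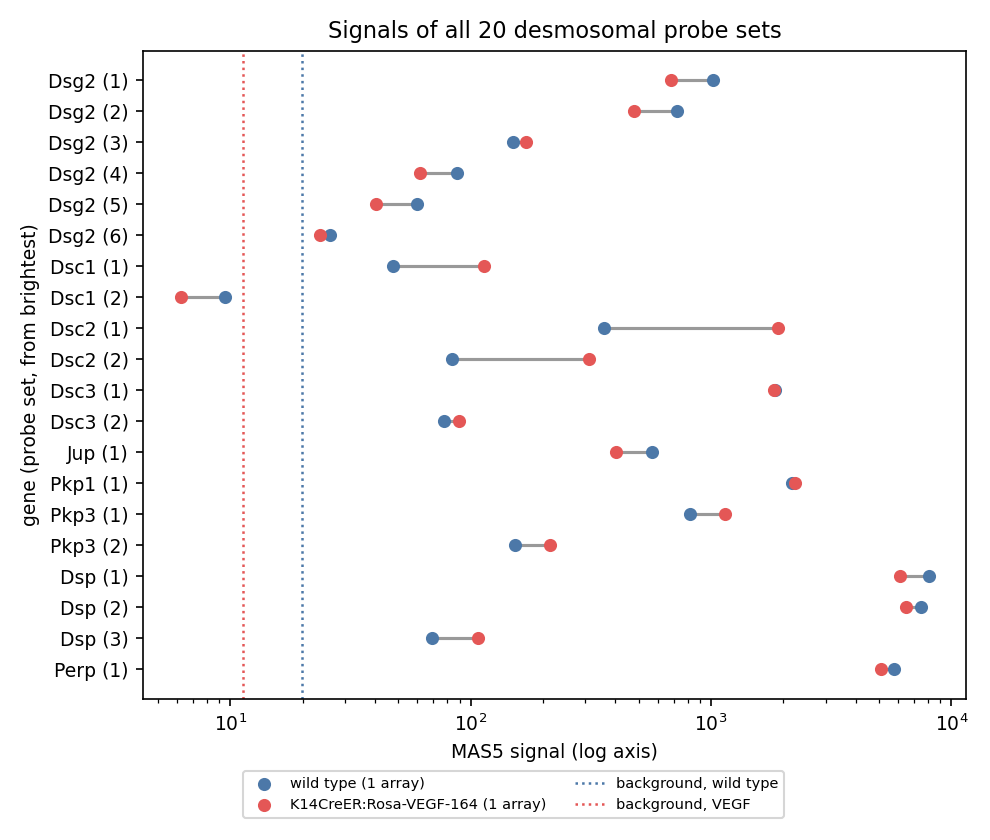
MAS5 signal (log axis) of each of the 20 desmosomal probe sets on the wild-type array (blue) and the array labelled VEGF (red), with the probe sets of a gene numbered from the brightest and dotted lines at each array's background. Both Dsc2 probe sets are far apart between the arrays, the Dsc3, Pkp1 and Perp points nearly coincide, and the second Dsc1 probe set lies below background on both arrays.

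Among the desmocollins, Dsc2, the form that also occurs in simple and stratified epithelia outside skin, was far apart between the arrays. Its brighter probe set (1426911_at) had a signal of 360 in wild type and 1903 on the array labelled VEGF, a log2 ratio of 2.40 where the SD was 0.32. The dimmer one (1421156_a_at) had 83.5 and 312, a log2 ratio of 1.90 where the SD was 0.42. Both log2 ratios were thus several times the SD from disagreement between probe sets. This SD leaves out the spread between animals, tumours, sorts and labellings. By its brighter probe set Dsc2 had the 41st highest ratio of the 12198 genes. Of 4885 genes for which 2 or more probe sets passed background on both arrays, 0.962% had all of them at least 2-fold higher, as Dsc2 had. Over the 10 other ways of processing that were tried, the log2 ratio of Dsc2 stayed between 2.15 and 2.44.

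Dsc3, the main desmocollin of basal keratinocytes, was nearly equal on the 2 arrays. Its brighter probe set (1434534_at) had signals of 1838 and 1825 on the wild-type array and the array labelled VEGF (log2 ratio -0.01), and its dimmer one (1427637_a_at) 77.1 and 89.6 (0.22, where the SD was 0.50). Within the same pair of arrays Dsc2 therefore differed by 2.41 more than Dsc3 on the log2 scale, where the SD of such a difference was 0.45. Over the 4 pairings of their probe sets, the difference lay between 1.69 and 2.41.

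Dsc1, the desmocollin of the upper epidermis, was higher on the array labelled VEGF by the probe set that detected it. This probe set (1456203_at) had a signal of 47.4 in wild type and 113 on the array labelled VEGF, a log2 ratio of 1.26 where the SD was 0.50. The other (1421460_at) had 9.52 and 6.24, below background on both arrays, and gave no ratio. The Dsc1 difference thus rests on 1 probe set in the lowest tertile of signal, where SDs are largest, and with an offset of 50 added to the signals it was under 2-fold, at a log2 ratio of 0.82.

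**Figure D2:**
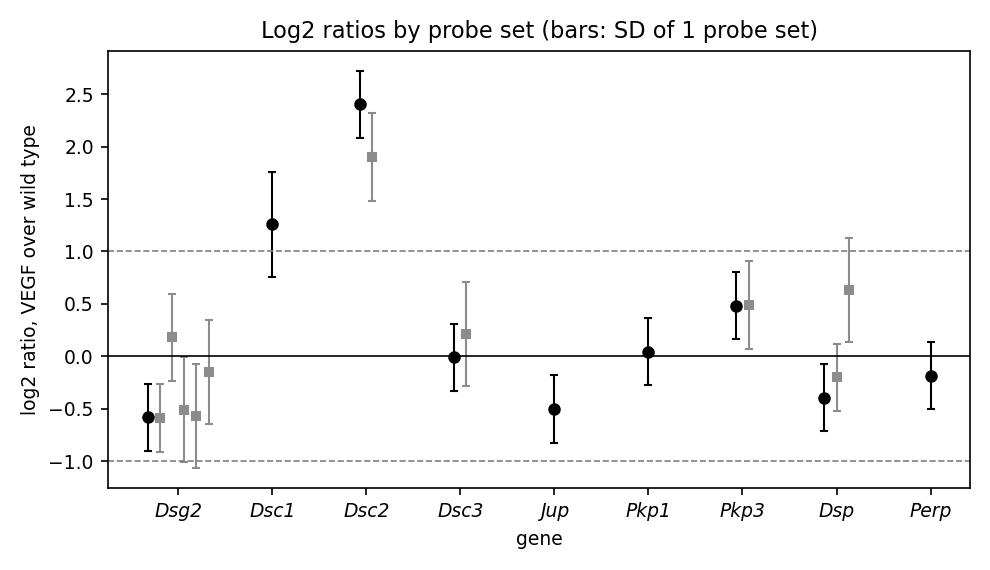
Log2 ratio (array labelled VEGF over wild type) of the 19 desmosomal probe sets above background, by gene, with the brightest probe set as a black circle, the others as grey squares, bars of 1 SD of a probe set's ratio and dashed lines at 2-fold. Both Dsc2 points (2.40 and 1.90) and the Dsc1 point (1.26) lie above the upper line, and 0 points lie below the lower one.

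Dsg2, the desmoglein found in nearly all tissues that have desmosomes, was slightly lower on the array labelled VEGF. Its brightest probe set (1439476_at) had signals of 1019 and 680 on the wild-type array and the array labelled VEGF, a log2 ratio of -0.58 where the SD was 0.32. Of its 6 probe sets 5 were lower and 1 was higher. The second brightest (1449740_s_at) had 719 and 479 (log2 ratio -0.59), the next (1425619_s_at) 151 and 171 (0.18) and the one after it (1460380_at) 87.6 and 61.6 (-0.51). The remaining 2 had 59.9 and 40.4 (1449741_at, -0.57) and 26.1 and 23.6 (1426153_a_at, -0.15). The log2 ratios of the 2 brightest were nearly the same. The second brightest and the probe set with a ratio above 0 were both of the _s_at type, which can bind more than 1 transcript. The size of the difference was not unusual, since 19.2% of genes in the highest tertile of signal were at least as far from equal.

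The armadillo proteins of the plaque went 3 ways, all by less than 2-fold. Jup, which encodes plakoglobin, a close relative of β-catenin shared by desmosomes and adherens junctions, had a signal of 568 in wild type and 401 on the array labelled VEGF, a log2 ratio of -0.50 from its only probe set (1426873_s_at), again a type that can bind several transcripts. Pkp1, which encodes the plakophilin most abundant in the upper layers of the epidermis, was nearly equal (2169 and 2237, log2 ratio 0.04, 1449586_at). Pkp3, whose plakophilin occurs in all epidermal layers, was slightly higher, with signals of 814 and 1138 by 1 probe set (1418831_at, 0.48) and 153 and 215 by the other (1418832_at, 0.49). The difference between the log2 ratios of Pkp3 and Pkp1 (0.44) was no larger than its SD of 0.45, and that between Pkp3 and Jup was 0.99.

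Dsp, which encodes the desmoplakin that anchors keratin, was slightly lower by its bright probe sets and not by its dim one. The signals on the wild-type array and the array labelled VEGF were 8055 and 6135 (1435493_at, log2 ratio -0.39), 7441 and 6479 (1435494_s_at, -0.20) and 69.2 and 107 (1427610_at, 0.63). The bright probe sets and the dim one thus differed in direction, and the dim one lay where the SD was 0.50. Perp, a p63 target whose product is needed for stable desmosomes in stratified epithelia, had 5758 and 5072 (1416271_at, -0.18). At such bright signals the scaling matters to small ratios. After quantile normalization, the log2 ratio was -0.18 for Dsp and 0.04 for Perp, so the direction for Perp turned.

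**Figure D3:**
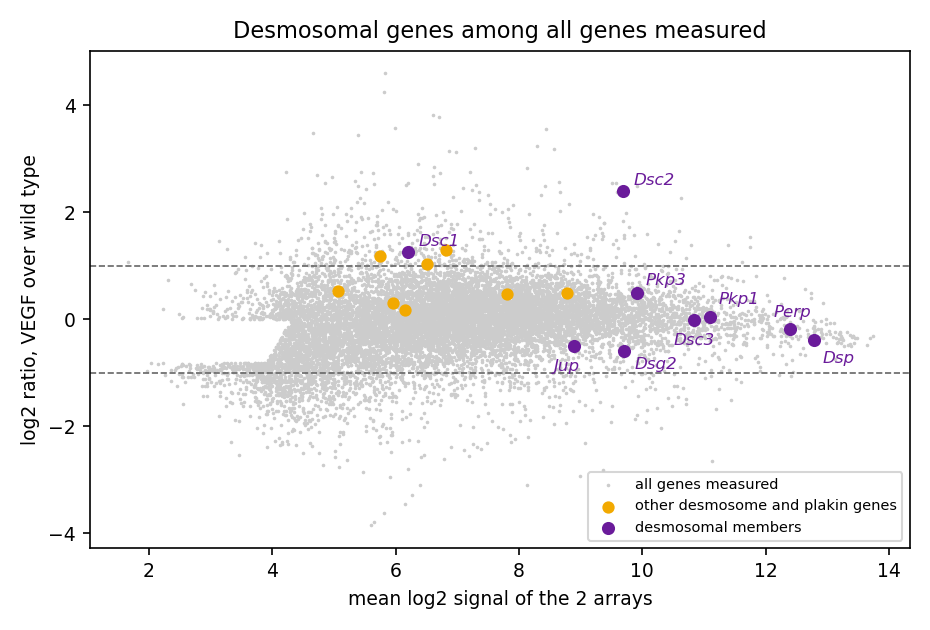
Log2 ratio against the mean log2 signal of the 2 arrays for the 12198 genes measured (grey), the 9 desmosomal members (purple) and 8 other desmosome and plakin genes (orange), with dashed lines at 2-fold. Dsc2 (2.40) stands above most genes of like signal, and the other members apart from Dsc1 lie between the lines.

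Start regions are shown for Jup and Dsp, 2 plaque genes whose products bind each other, because a promoter sequence was at hand for these members only. No link between these sequences and the ratios was tested. The 250 bases before the start of each, on the gene's strand, are from RefSeq on GRCm38.p6, whose promoter table matched 2 of the 10 members. Capitals mark the GC box (GGGCGG, searched on both strands and printed as CCGCCC where it lies on the other strand).
Jup (chr11:100397791-100398040, minus strand): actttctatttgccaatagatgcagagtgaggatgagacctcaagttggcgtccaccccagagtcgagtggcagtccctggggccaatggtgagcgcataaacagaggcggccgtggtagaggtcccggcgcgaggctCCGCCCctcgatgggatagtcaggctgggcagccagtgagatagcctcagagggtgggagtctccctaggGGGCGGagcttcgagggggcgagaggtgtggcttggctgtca
Dsp (chr13:38151044-38151293, plus strand): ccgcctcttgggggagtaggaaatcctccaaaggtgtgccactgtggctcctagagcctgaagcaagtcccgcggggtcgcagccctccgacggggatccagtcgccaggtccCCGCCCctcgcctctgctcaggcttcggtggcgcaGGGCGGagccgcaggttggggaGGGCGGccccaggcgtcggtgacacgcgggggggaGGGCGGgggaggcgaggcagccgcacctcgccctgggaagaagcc
The Jup window holds 2 GC boxes, beginning 112 and 42 bases before the start, and the Dsp window holds 4, beginning 137, 102, 80 and 45 bases before it. Of 32851 promoter windows of this length 32.7% hold at least 1. The bases G and C make up 62% of the Jup window and 72.4% of the Dsp window, and the median over all windows was 52.4%. The AP-1 motif TGANTCA (in 6.75% of windows), the TATA box TATAAA (12.4%), the Tcf/Lef motif CTTTGAT (3.21%) and the Grainyhead-like motif AACCGGTT (0.116%) are not spelled in either window. A match or its lack describes these letters only.

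The 5 cadherin genes named above lie together in 1 cluster on chromosome 18, and neighbours there did not go the same way. In gene order the cluster holds Dsc3, Dsc2, Dsc1, Dsg1c, Dsg1a, Dsg1b, Dsg4, Dsg3 and Dsg2. Dsc2 (log2 ratio 2.40) and Dsc1 (1.26) are next to each other, with the nearly equal Dsc3 (-0.01) on the other side of Dsc2 and Dsg2 (-0.58) at the far end. Dsg1b, a desmoglein 1 gene of the upper epidermis, had a signal of 63.7 in wild type and 131 on the array labelled VEGF, a log2 ratio of 1.04, and its close relative Dsg1a had 55.6 and 68.9 (0.31). The desmoglein 1 genes are near-identical copies, so a probe set of one may also bind transcripts of the other and each value is uncertain. Of the 9 cluster genes 6 had a probe set of their own. Of the 3 nearest measured genes on each side, Aqp4 (-0.89, near background), B4galt6 (0.02) and Trappc8 (0.41) had a ratio, and Chst9, Cdh2 and Ttr were below background on both arrays.

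**Figure D4:**
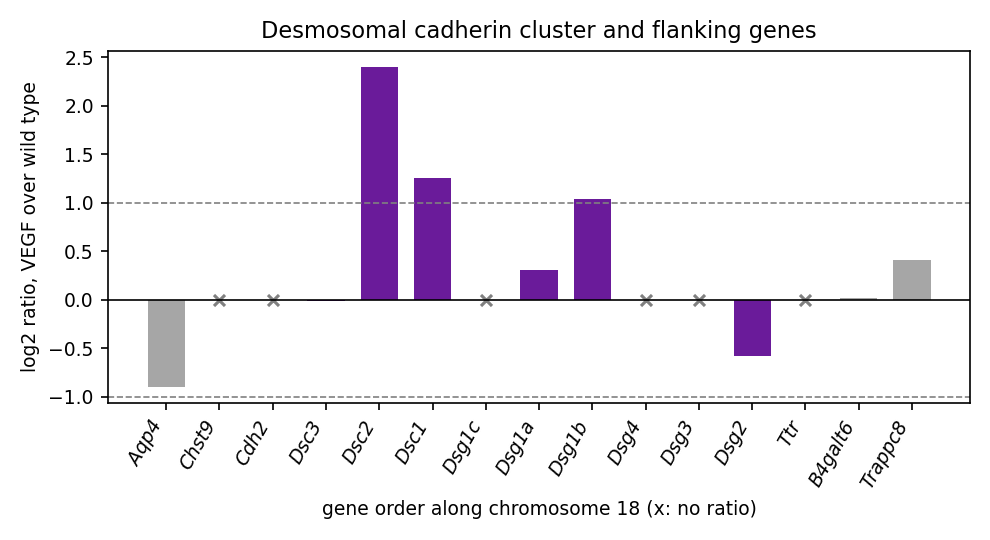
Log2 ratio (array labelled VEGF over wild type) of the genes of the desmosomal cadherin cluster (purple) and the 3 nearest genes with a probe set on each side (grey), in gene order and not to distance, with crosses for genes without a ratio and dashed lines at 2-fold. Dsc2 (2.40), Dsc1 (1.26) and Dsg1b (1.04) are above the upper line, with Dsc3 (-0.01) beside them at 0 and Dsg2 (-0.58) below 0.

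The other desmosome and cornified-layer plakin genes were all higher on the array labelled VEGF by their brightest probe sets. Of 10 listed, 8 had a probe set, and all 8 had a log2 ratio above 0 (against 47.1% of all genes measured). Of these 8, 3 were at least 2-fold higher (against 3.87%) and 0 lower by as much (against 8.53%). The list median was 0.51. The 3 were Dsg1b, described above, Ppl, which encodes periplakin of the cornified envelope, at 2.46-fold (71.6 in wild type and 177 on the array labelled VEGF), and Cdsn, which encodes corneodesmosin of the corneodesmosome, at 2.28-fold (35.5 and 80.8). Evpl, which encodes envoplakin, the partner of periplakin, had a log2 ratio of 0.47 (191 and 265). The plakophilin-related genes were less far apart, with Pkp2 at 0.53 (27.9 and 40.3), a log2 bound of 0.81 by the only other probe set above background on either array, and Pkp4 at 0.48 (373 and 522), 0.18 by its other probe set. Kazn, which encodes kazrin, had 0.17 (66.9 and 75.5) and -0.47 by its other probe set. With the offset of 50, 0 of these 8 reached 2-fold, and the median over all settings stayed between 0.43 and 0.60.

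Adherens junction genes, which build the neighbouring belt of adhesion, split evenly. Of 14 measured by their brightest probe sets, 7 had a ratio above 0 and 7 below. In either direction 0 were 2-fold apart (against 3.87% higher and 8.53% lower over all genes measured). The median was -0.01, and up to 0.15 under other settings. The largest in size were Afdn, which encodes the actin linker afadin (log2 ratio -0.77, 558 in wild type and 328 on the array labelled VEGF), Nectin3, a nectin adhesion gene (-0.77, 28.5 and 16.7), and Plekha7, of the apical belt (0.68, 114 and 182). Among dimmer probe sets, log2 ratios or bounds reached -1.62 for Ctnnd1, with another at 0.30, and -1.29 for Nectin3, and none was 2-fold higher. Under 1 other setting Nectin3 was at -1.03.

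The keratins that desmoplakin anchors differed by class. The basal partners Krt5 (log2 ratio -0.08) and Krt14 (-0.07) were nearly equal, and Krt15, a keratin of basal cells and the follicle bulge, was 2.81-fold lower (2806 in wild type and 999 on the array labelled VEGF). Among suprabasal keratins Krt1 was 2.94-fold higher (382 and 1124), Krt10, its partner, was nearly equal (0.12), and Krt77 was lower by a log2 ratio of -0.86 at low signal (28.7 and 15.8). Among the wound keratins Krt16 was 2.11-fold higher (2167 and 4574), and Krt6b (0.57) and Krt6a (-0.23) were under 2-fold. The 2 other probe sets of Krt6a went the other way, at 0.36 and 0.37. The simple-epithelial keratins were far higher on the array labelled VEGF, with Krt8 at 4.39-fold (114 and 499), its partner Krt18 at 9.14-fold and Krt19 at least 3.41-fold. Of the 4 genes, 3 were at least 2-fold higher (against 3.87% of all genes measured).

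Of 8 measured proteases that cut desmosomal proteins and their inhibitors, 1 reached 2-fold higher and 0 reached 2-fold lower (median 0.12). Over all genes measured the shares were 3.87% and 8.53%. The higher one was Spink5, which encodes LEKTI, an inhibitor of the kallikreins that cut corneodesmosomes, at 2.89-fold (490 in wild type and 1413 on the array labelled VEGF). Adam17, a sheddase gene (0.35), and Mmp9, a gelatinase gene (0.24), had the next largest ratios. Of 11 epithelial transcription factor genes with a ratio, 3 reached 2-fold higher (against 3.87% of all genes) and 1 reached 2-fold lower (against 8.53%). Grhl3, a Grainyhead-like factor of epidermal differentiation, was 4.19-fold higher (96.1 and 402) and Ovol2, a repressor of mesenchymal genes, 2.32-fold higher (34.2 and 79.3). Zeb1, a repressor of epithelial genes, passed background on the wild-type array alone (25.5) and was at least 2.25-fold lower, but with a floor of 19.8 on both arrays its log2 bound was only -0.36. Among dimmer probe sets of these factors, log2 ratios or bounds reached -2.52 for Trp63 (-0.77 by its brightest). Klf5 had -1.16 by its other probe set (0.12 by its brightest). Of 7 measured genes of the Wnt pathway in which plakoglobin and β-catenin take part, 0 reached 2-fold higher and 2 reached 2-fold lower (against 8.53% of all genes). The median was -0.72, but over all settings it lay between -0.72 and -0.07, and 1 to 3 genes were 2-fold lower. The 2 lower by the main setting were the DNA-binding partners Tcf7l2 (2.59-fold lower, 282 and 109) and Lef1 (2.23-fold lower, 41.6 and 18.7). The related Tcf7l1 had a log2 ratio of -0.82 by its brightest probe set, and a ratio or bound of -2.44 by its other one with a value. With the offset of 50, Ovol2 (0.71), Zfp750 (0.88), a differentiation factor gene counted above, Lef1 (-0.33) and Krt19 (0.94) were under 2-fold.

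**Figure D5:**
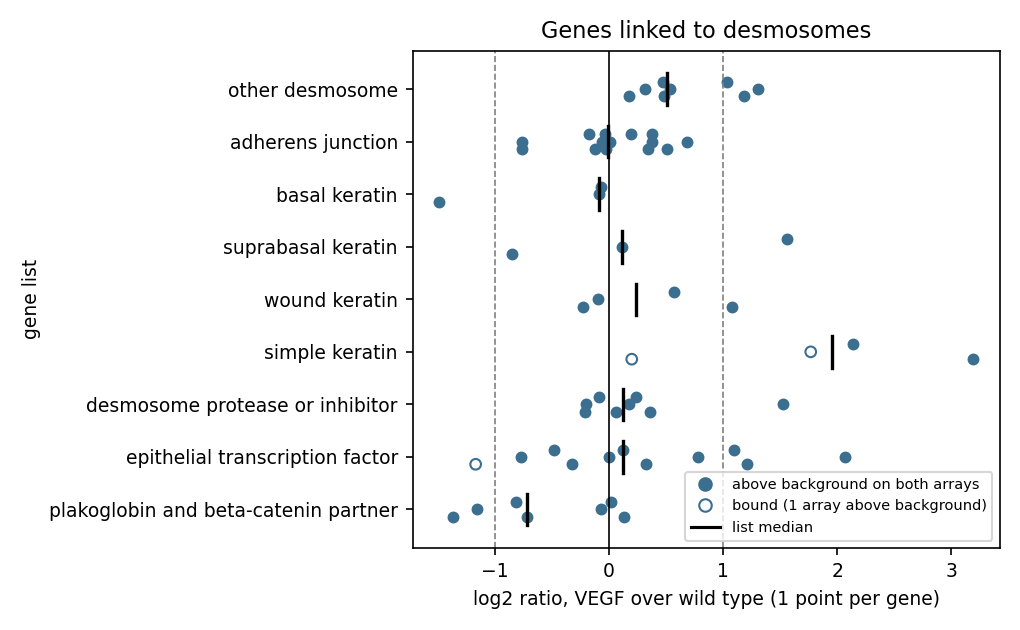
Log2 ratio (array labelled VEGF over wild type) of each gene in 9 lists linked to desmosomes, with open circles for bounds, black ticks at each list's median and dashed lines at 2-fold. The other desmosome genes lie wholly above 0 (median 0.51), adherens junction genes lie around 0 (median -0.01), and the simple keratins reach 3.19.

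Markers of other cell states also differed between the arrays, some higher and some lower on the array labelled VEGF. Their part in the result was not tested. Of 10 suprabasal keratinocyte markers 9 had a ratio, 5 reached 2-fold higher (against 3.87% of all genes measured) and 0 reached 2-fold lower (against 8.53%). Over all settings 4 to 6 were 2-fold higher. By the main setting 3 were below 0, namely Ivl (-0.18), Dmkn (-0.06) and Krtdap (-0.12). Summed signals were 15946 in wild type and 18174 on the array labelled VEGF. The largest terms were Krtdap (7354 and 6754) and Dmkn (4296 and 4113). Flg was below background on both arrays. The 4 simple-epithelial keratins summed to 259 and 1743. Of 6 fibroblast markers 2 were at least 2-fold higher (against 3.87% of all genes measured), with summed signals of 1119 and 2642. Pdgfra had 9.86 and 34.7, above background on the array labelled VEGF only. Of 6 hair shaft and root sheath markers 4 had a ratio and all 4 were at least 2-fold lower (against 8.53% of all genes measured). The 6 summed to 317 and 125. Krt25 was below background on both arrays. Krt71 passed it on the array labelled VEGF only (9.00 and 13.7) and gave no ratio. With a floor of 19.8 on both arrays, 3 of the 4 were under 2-fold (log2 ratio or bound -0.53 for Krt27, -0.74 for Krt28 and -0.90 for Msx2), and with the offset of 50 all 4 were, Gata3 only just. Immune (328 and 187), melanocyte (276 and 129), skeletal muscle (120 and 58.7) and sebaceous (43.9 and 28.2) sums were lower and the endothelial sum (75.8 and 116) higher on the array labelled VEGF, with Cd3e, Cd207, Tyr, Myh4, Tnnt3, Mc5r and Tie1 below background on both arrays. Of the markers of these last 5 types 0 were at least 2-fold higher (against 3.87% of all genes measured). With no floor 1 immune and 2 endothelial ones were (against 9.21%). At least 2-fold lower were 2 of 4 immune markers with a ratio, 1 of 2 melanocyte and 1 of 2 skeletal muscle ones. Of the sebaceous and endothelial ones 0 were (against 8.53% of all genes measured). Each of these 3 lower counts fell to 0 under at least 1 other setting.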

How the data were processed

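The deposited table held log2 signals from MAS5, which is named in the submitters' processing notes, with version, scaling target and detection calls not given in the sources used here. Per the labels, 100 ng of total RNA was amplified and labelled for each array. The 2% trimmed mean of the anti-logged signals was 100.04 on both arrays. Of 45101 probe sets, the platform annotation gave exactly 1 gene for 34958, of which 34945 remained without control probe sets. Signals were floored at each array's background (the 90th percentile of receptor probe sets), a gene took its brightest probe set (by mean log2 signal), and a difference was called at 2-fold. The SD of a probe set's ratio came from the 2 brightest probe sets of 4885 genes. No test was possible with 1 array per group. Related genes are named by rule: all other desmosome genes and the 3 largest ratios of each further list. A few more are named where dimmer probe sets or other settings differed. No gene is named for likeness of pattern, since 2 arrays give no pattern. Members and lists were chosen with earlier results of these data known. The calculation (Python 3.11.15, pandas 2.3.3, statsmodels 0.14.6) was tested on simulated data. The 10 alternatives were other floors, an offset, other scalings, other choices among probe sets and a stricter filter.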

Additional observations from a re-analysis of the deposited data

How the results depend on the processing

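Of the 10 alternatives tried, 9 left 2 desmosomal genes at least 2-fold higher, and the offset of 50 left 1, Dsc2, with Dsc1 at a log2 ratio of 0.82. The number at least 2-fold lower was 0 under all 10, and the median of the measured members stayed between -0.01 and 0.04. With the scaling of the arrays, only Dsc3 and Perp changed direction by their brightest probe sets. Dsc3 lay between -0.03 after quantile normalization and 0.03 with median-centred ratios, and Perp was at 0.04 after quantile normalization. The median over probe sets put Dsc3 at 0.10. Jup had no value when probe sets ending in _s_at or _x_at were left out. The arrays' background differed, which limits genes near it such as Dsc1, Pkp2 and Cdsn. No paired analysis was possible because each genotype had 1 array. Over all genes, 472 reached 2-fold higher and 1041 reached 2-fold lower, against 216 and 153 with the offset, 1675 and 2770 with no floor, 297 and 298 with the stricter filter, 401 and 521 with the median floor, 472 and 624 with the common floor, 563 and 678 after quantile and 584 and 645 after loess normalization.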
